A study of Mus musculus with 3 samples.

Results

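The 8 genes described here, Il1rapl1, Il1rapl2, Pcdh11x, Tenm1, Gria3, Fgf13, Aff2 and Cask, are very long genes of chromosome X whose products act at nerve cell membranes and synapses or are known from brain disorders. They were named as a list, and each was represented by the listed variant sites in its annotated body and in 5 kb on both sides. They are 8 of the 1256 protein-coding and long noncoding genes that RefSeq places on chromosome X in assembly GRCm38.p6, the build also called mm10. Their windows held 16107 of 411944 listed single-base sites in fibroblasts, 5363 of 186841 in the first reprogrammed sample and 3830 of 119257 in the second.

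LSD1 (Kdm1a), a demethylase that removes methyl groups from histone H3, was precipitated from sonicated mouse chromatin with an antibody, and the DNA was sequenced and listed by allele at variant positions of chromosome X. There were 3 groups of 1 library each. MEF was from mouse embryonic fibroblasts at day 0, with no vector named in its labels. LowK was from fibroblasts given SeVdp(fKOSMaB), a Sendai virus vector for reprogramming, at day 20 without Shield1, and MidK was from fibroblasts given the same vector at day 20 with 30 nM Shield1, a cell-permeable ligand that protects destabilising-domain fusion proteins from degradation. The reads at listed single-base sites numbered 883058 in MEF, 295240 in LowK and 203350 in MidK, so MidK values carry the widest counting error. With 1 library per group there was no replicate error and no test. Intervals given in brackets are 95% intervals of counting error only, and they are too narrow because a read that covers several listed sites was counted at each. Since no input library was used, read shares measure coverage only, not enrichment. Neither the strain with the variant base nor the sex of the cells is given in the sources used here.

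IL1RAPL1, IL1RAPL2, PCDH11X and TENM1 are membrane proteins with large extracellular parts, and their genes are called the 4 adhesion genes here. IL1RAPL1 is a synaptic organiser of the interleukin-1 receptor family, IL1RAPL2 is its closest relative, PCDH11X is a protocadherin and TENM1 is a teneurin that binds partners on neighbouring cells. GRIA3 is a subunit of AMPA-type glutamate receptors. CASK is a scaffold of the membrane-associated guanylate kinase family at synapses, FGF13 is an intracellular FGF-like protein that binds voltage-gated sodium channels, and AFF2 is a nuclear protein whose human gene is silenced in fragile X E intellectual disability. Genes of such length consist mostly of introns, and LSD1 is best known at promoters and enhancers, where it works with the CoREST complex. The rule calls these genes silent in fibroblasts. These data are chromatin reads and hold no expression values, so that was not checked here.

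The length could be checked. Il1rapl1 (X, 86740937 to 88115948) spans 1375 kb and ranks 2 by length among these genes, Il1rapl2 (X, 137570754 to 138849077) spans 1278 kb and ranks 3, and Tenm1 (X, 42527866 to 43429168) spans 901 kb and ranks 5. Pcdh11x (X, 120290238 to 120910622) spans 620 kb, Fgf13 (X, 59062139 to 59585572) 523 kb, Aff2 (X, 69360190 to 69872054) 512 kb and Cask (X, 13517080 to 13846783) 330 kb. Gria3 (X, 41400819 to 41678601) was the shortest, at 278 kb and rank 29. There were 42 other genes of at least 200 kb on the chromosome. Some member windows contain other genes whose reads were counted with them, namely Gpr34, Gpr82 and Gm34836 within Cask, Tex13a within Il1rapl2, H2ab3 and part of Gm30577 within the Pcdh11x window and Mir504, Gm36570, Gm39518 and part of Gm36631 within the Fgf13 window, besides small RNAs and pseudogenes.

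The promoter sequences of 3 starts are shown because they carry listed sites and differ in how many reads lay around them in LowK. Each runs 5′ to 3′ on the gene's own strand, from 250 bases before to 50 bases after a start site, as RefSeq gives it for GRCm38.p6, and capitals mark the positions of listed variant sites. Positions are counted from 1 at the 5′ end, with the reference base first and the variant base last.
Il1rapl2, chrX:137570504-137570803, plus strand: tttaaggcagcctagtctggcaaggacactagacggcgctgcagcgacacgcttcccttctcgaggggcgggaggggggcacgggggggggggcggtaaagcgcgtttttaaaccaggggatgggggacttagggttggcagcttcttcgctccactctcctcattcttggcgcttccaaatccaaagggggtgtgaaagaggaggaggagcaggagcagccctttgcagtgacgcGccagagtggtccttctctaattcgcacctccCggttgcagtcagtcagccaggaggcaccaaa
Fgf13, chrX:59567299-59567598, minus strand: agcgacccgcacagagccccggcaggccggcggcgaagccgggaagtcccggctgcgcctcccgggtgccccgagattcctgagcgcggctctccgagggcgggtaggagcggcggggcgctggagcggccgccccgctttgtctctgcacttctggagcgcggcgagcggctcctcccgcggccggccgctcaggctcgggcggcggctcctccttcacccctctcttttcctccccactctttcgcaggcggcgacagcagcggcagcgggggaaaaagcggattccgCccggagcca
Il1rapl1, chrX:88115899-88116198, minus strand: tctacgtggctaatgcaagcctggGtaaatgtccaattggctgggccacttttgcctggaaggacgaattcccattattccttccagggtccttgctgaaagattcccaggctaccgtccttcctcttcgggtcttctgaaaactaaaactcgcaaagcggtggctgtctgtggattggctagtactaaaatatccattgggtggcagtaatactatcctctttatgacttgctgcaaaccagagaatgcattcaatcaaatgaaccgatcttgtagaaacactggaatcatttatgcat
The Il1rapl2 promoter has a GC content of 60.3% and 16 CpG dinucleotides, and both of its sites were listed in MEF and in LowK. At G237A, MEF had 0 reads of the B6 base and 3 of the variant, and LowK had 1 and 2. At C269T, MEF had 1 and 2, and LowK had 0 and 2. The Fgf13 promoter is the richest of the 8 that were matched, with 74.3% GC and 40 CpG dinucleotides, and its site C291G had 1 variant read in MEF and 2 in LowK. The Il1rapl1 promoter has 45.0% GC and 7 CpG dinucleotides, and its site G25A had 4 variant reads in MEF and was not listed in LowK or MidK. The RefSeq table held 8 start sites of 5 members, which were Fgf13 with 4 and Aff2, Il1rapl1, Il1rapl2 and Tenm1 with 1 each. Cask, Gria3 and Pcdh11x had no entry. GC content ranged from 27.0% with 0 CpG at the Tenm1 entry, which lies inside the gene body, to the Fgf13 value above, and the median over all 1223 promoter entries of the chromosome was 51.0% with 7 CpG. All 11 listed entries in these 8 promoters had the reference base that the sequence shows. A listed site was present in 4 of the 8 in MEF, 3 in LowK and 2 in MidK, against 46.1%, 39.1% and 18.8% of all 1223.

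Reads around these starts were few. In the Il1rapl2 promoter sequence and 1 kb on both sides of it there were 13 reads in MEF, 19 in LowK, then 3 in MidK. Around the Fgf13 promoter shown there were 12, 19 and 6, and around the Il1rapl1 promoter 12, 2 and 1. LowK, the smaller library, had more raw reads than MEF at the 2 CpG-rich starts shown and fewer at the Il1rapl1 start. The 3 starts were picked for this difference. Of the starts not shown, Aff2 (16 CpG) had 8 reads in MEF and 9 in LowK, and Tenm1 (0 CpG) had 8 and 0. The other Fgf13 starts had 9 and 12 (37 CpG), 0 and 2 (6 CpG) and 10 and 5 (3 CpG). A link of reads to CpG content was not tested. The sums and ratios that follow use a narrower window, 1 kb on both sides of the start site itself. Within it, over all 8 starts, MEF had 59 reads, LowK 59 and MidK 18. As a share of the library total, the 8 starts were 2.99-fold higher in LowK than in MEF (2.05 to 4.37), and all 1223 starts of the chromosome were 2.12-fold higher (2.07 to 2.17). The member starts went with the other starts of the chromosome, and with 1 site kept per 300 bp and counted 1 time whatever its depth the ratio was 1.57 (0.738 to 3.30). Both windows, like the one around gene ends described later, were chosen after the data were seen.

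Across their whole windows all 8 genes took their largest share of reads in MEF, and LowK was lower than MEF in every one. The 4 adhesion genes were intermediate in MidK. Il1rapl1 had 85.2 of every 10000 listed reads in MEF (83.3 to 87.2), while LowK had 61.4 (58.6 to 64.3) and MidK 68.2 (64.6 to 71.8). Il1rapl2 had 83.2 (81.3 to 85.1), 58.7 (56.0 to 61.6) and 70.2 (66.6 to 74.0). For this pair the order was MEF, MidK, LowK with no overlap between intervals. Tenm1 had the same order, at 50.4 (49.0 to 51.9), 34.5 (32.4 to 36.7) and 39.9 (37.2 to 42.7). Pcdh11x had 38.3 in MEF (37.0 to 39.6), and its LowK and MidK values were 30.1 (28.2 to 32.2) and 36.5 (33.9 to 39.2). In Pcdh11x the intervals of MEF and MidK overlapped and LowK stood below both.

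The other 4 genes were low in both reprogrammed samples. Gria3, the receptor subunit gene, had 15.7 reads per 10000 in MEF (14.9 to 16.5), against 11.5 (10.3 to 12.8) without Shield1 in LowK and 9.54 (8.24 to 11.0) with it in MidK. Fgf13 had 34.5 (33.2 to 35.7), 21.0 (19.4 to 22.7) and 22.3 (20.3 to 24.4), and Aff2 had 38.6 (37.3 to 39.9), 22.3 (20.6 to 24.1) and 23.2 (21.2 to 25.4). In these 3 genes LowK and MidK overlapped. Cask had 23.9 in MEF (22.9 to 24.9), then 19.9 (18.3 to 21.6) in LowK and 13.3 (11.7 to 15.0) in MidK, and it was the one gene with LowK above MidK and their intervals apart.

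Per kb of window, the order among the genes can be read within a library. In MEF, Aff2 had 6.53 reads per kb and Cask 6.21, followed by Fgf13 at 5.70, Il1rapl2 at 5.70, Il1rapl1 at 5.43, Pcdh11x at 5.36, Tenm1 at 4.89 and Gria3 at 4.81. In LowK, Cask was highest at 1.73, followed by Pcdh11x at 1.41, Il1rapl2 at 1.35, Il1rapl1 at 1.31, Aff2 at 1.26, Gria3 at 1.18, Fgf13 at 1.16 and Tenm1 at 1.12. In MidK, Pcdh11x led at 1.18, then Il1rapl2 at 1.11, Il1rapl1 at 1.0, Aff2 at 0.904, Tenm1 at 0.890, Fgf13 at 0.849, Cask at 0.795 and Gria3 at 0.674. Aff2 and Cask thus led in MEF, and Cask was next to last in MidK. The median over all 1256 genes was 6.15 reads per kb in MEF, 2.03 in LowK and 1.0 in MidK. The members' own range was 4.81 to 6.53, 1.12 to 1.73 and 0.674 to 1.18. In LowK every member lay under the median of all genes. The density of listed sites followed, with 2.35 to 3.20 per kb in the members against 2.85 in the median gene in MEF, 0.787 to 1.10 against 1.32 in LowK and 0.507 to 0.766 against 0.673 in MidK.

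How far the samples differ depends on what a share is set against. The median gene of the chromosome had 1.06 times its MEF share in LowK, 0.736 times in MidK, and in MidK 0.679 times its LowK share. Reads outside all gene windows made up 60.1% of the total in MEF, 60.5% in LowK and 66.1% in MidK. Ratios below are relative to the median gene unless library totals are named.

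LowK against MEF compares cells at day 20 with the vector and no Shield1 with fibroblasts, with reads of 7658 against 32648 in the 8 windows. The members summed to a ratio of 0.661 (0.644 to 0.677), a log2 ratio of -0.60, and to -0.51 with library totals. Aff2 had the lowest ratio, 0.544 (0.50 to 0.591), followed by Fgf13 at 0.574 (0.525 to 0.626). Tenm1 was at 0.644 (0.601 to 0.689), Il1rapl2 at 0.665 (0.631 to 0.701), Il1rapl1 at 0.678 (0.644 to 0.714) and Gria3 at 0.689 (0.610 to 0.777). Pcdh11x at 0.740 (0.687 to 0.797) and Cask at 0.784 (0.714 to 0.860) were the nearest to the median gene. All 8 ratios lay below 1, but none passed the rule for a call, which asks for a 2-fold difference, intervals that do not overlap and at least 30 reads in 1 of the libraries. That was 0 of 8 members, where the rule called 13.6% of the 1080 genes tested. At 1.5-fold 4 members were called lower, where 12.5% of all genes tested were. With a reliability of at least 20, the authors' score for a variant call, 3 were lower, where 12.1% were, and with sites of at least 2 reads 2 were lower, where 12.3% were.

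The other genes of at least 200 kb also tended to lie below the median gene in this comparison. Of 41 tested, 34 lay below it, their median ratio was 0.832 and 1 was called, Atg4a, at 2.65 (2.40 to 2.92). Of 52 other X-linked neural genes, 29 lay below the median gene, with a median ratio of 0.911 and 3 called higher and 0 lower. These 3 were Plxnb3, a plexin receptor, at 4.42 (3.42 to 5.74), Sox3, a transcription factor of neural progenitors, at 2.49 (1.80 to 3.43) and Slitrk4, a synaptic adhesion gene, at 2.12 (1.51 to 2.97). The members' median was 0.672, below both lists. Genes of fibroblasts and their matrix had a median of 0.822, with 2 of 16 called higher and 1 lower.

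MidK against MEF gave no single direction. The members summed to 1.04 (1.01 to 1.07), a log2 ratio of 0.06, but to -0.39 with library totals, so the direction of this sum depends on the scale. Pcdh11x at 1.29 (1.19 to 1.4), Il1rapl2 at 1.15 (1.08 to 1.21) and Il1rapl1 at 1.09 (1.03 to 1.15) lay above the median gene with intervals clear of 1, and Tenm1 was at 1.07 (0.996 to 1.16). Fgf13 at 0.878 (0.794 to 0.970), Gria3 at 0.826 (0.707 to 0.961), Aff2 at 0.817 (0.741 to 0.900) and Cask at 0.756 (0.663 to 0.858) lay below it. With library totals all 8 lay below MEF. With thinned sites counted 1 time each, Il1rapl1 had a log2 ratio of -0.011, Tenm1 -0.0070 and Il1rapl2 0.032, and with a reliability of at least 20 Tenm1 had -0.14, so of the 4 adhesion genes Il1rapl2 and Pcdh11x stayed above the median gene under both. The split between the 4 adhesion genes and the other 4 is the same with the median gene and with library totals, since it is an order within the list. The 4 adhesion genes are also the 4 longest of the list, so protein class and length cannot be told apart in this split. None of the 8 was called, where 19.4% of 1080 genes were. The other long genes had a median of 1.14 with 15 of 41 below the median gene, and the other neural genes a median of 0.930 with 29 of 52 below it. Among the other neural genes, Usp27x was called higher, at 3.0 (1.91 to 4.62), and Igsf1 was called lower, at 0.406 (0.198 to 0.746).

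MidK against LowK is the comparison with and without Shield1 at day 20. Relative to the median gene the members summed to 1.61 (1.55 to 1.66), a log2 ratio of 0.68, and with library totals to 0.13. Pcdh11x at 1.78 (1.62 to 1.97), Il1rapl2 at 1.76 (1.64 to 1.89), Tenm1 at 1.70 (1.55 to 1.87) and Il1rapl1 at 1.63 (1.52 to 1.75) had the highest ratios. Fgf13 was at 1.56 (1.38 to 1.77), Aff2 at 1.53 (1.36 to 1.73) and Gria3 at 1.22 (1.02 to 1.46). Cask was at 0.983 (0.848 to 1.14), which did not differ from the median gene beyond counting error. None was called, where 20.6% of 906 genes were. At 1.5-fold 6 were called higher, where 18.7% of all genes tested were. With a reliability of at least 20, a score whose column is headed with another name in the MidK list, 5 were higher, where 18% were, and with sites of at least 2 reads 4, where 19.3% were. The other long genes had a median of 1.34, with 2 of 41 called higher, Mid1 and Gm35105, and 0 lower. The other neural genes had a median of 0.964, with 1 of 49 called higher, Usp27x at 2.28 (1.35 to 3.84), and 7 lower, among them Sox3 at 0.169 (0.0600 to 0.385), Igsf1 at 0.290 (0.139 to 0.547) and Plxnb3 at 0.340 (0.214 to 0.521). Both comparisons of LowK and MidK with MEF share the MEF library, and both comparisons that include LowK share that one.

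**Figure D1:**
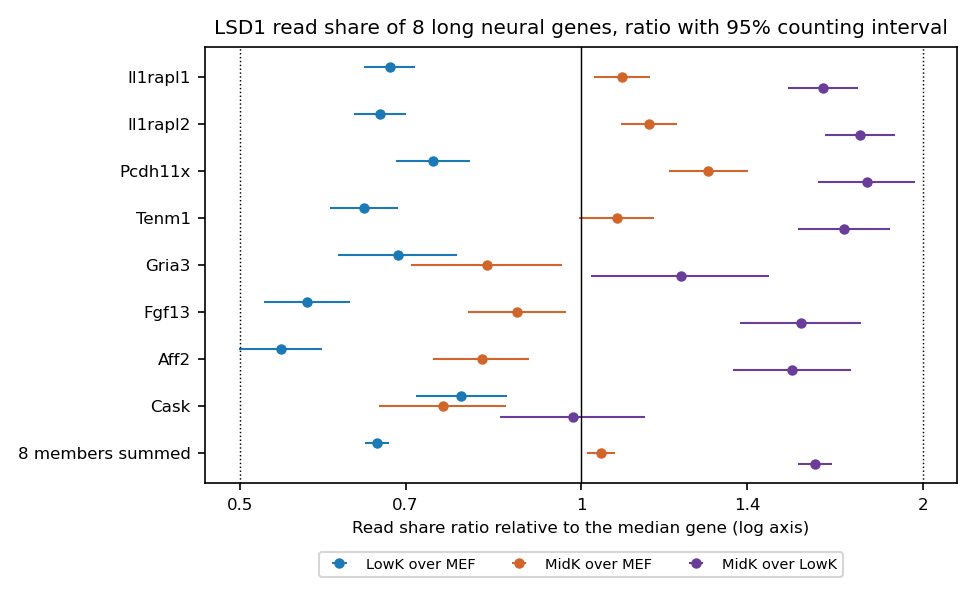
Read share ratio of each gene and of the 8 summed, relative to the median gene of chromosome X, on a log axis. Points are ratios for LowK over MEF, MidK over MEF and MidK over LowK, bars are 95% intervals of counting error with 1 library per group, and dotted lines mark the 2-fold differences of the call rule, which no point passes. LowK over MEF lies below 1 for all 8, and Cask alone has MidK over LowK at about 1.

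The chromosome X genes whose pair of ratios to MEF lay nearest to the members' median pair were sought among genes with at least 30 reads in each library. There were 545 such genes with the members included, and the members were left out of the search. The 5 nearest were Smarca1, a chromatin remodelling ATPase, Rbbp7, a histone-binding protein of several chromatin complexes, Wdr44, Ptchd1 and Chst7. Smarca1 had log2 ratios of -0.58 for LowK and -0.08 for MidK, where the members' medians were -0.57 and -0.04. These 5 genes are 18.7 kb to 114 kb long and had 36 to 148 reads in MidK. The measure rests on 3 libraries.

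In 100 kb bins counted from the lower-coordinate edge of each window, the genes gave 63 bins, of which 55 were full. Full bins ranged from 3.75 to 7.78 reads per kb in MEF, from 0.74 to 1.90 in LowK and from 0.51 to 1.81 in MidK, that is 2.07-fold, 2.57-fold and 3.55-fold. In MEF the highest was the bin from 1100 kb in Il1rapl2 (778 reads) and the lowest the bin from 500 kb in Il1rapl1 (375 reads). In LowK the highest was the bin from 400 kb in Il1rapl2 (190 reads) and the lowest the bin from 200 kb in Il1rapl1 (74 reads). In MidK the highest was the bin from 400 kb in Pcdh11x (181 reads) and the lowest the first bin of Tenm1 (51 reads). No bin was the highest or the lowest of all 55 in more than 1 library. Within single genes some were. The bin from 700 kb in Tenm1 and that from 200 kb in Cask were the highest full bins of their gene in MEF, LowK and MidK. Across the 55 full bins, reads per bin correlated weakly between MEF and LowK (Pearson r 0.34, Spearman rho 0.31), between LowK and MidK (0.20 and 0.20) and between MEF and MidK (0.03 and 0.05), a description over bins that share a library's depth and base composition and are not independent.

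**Figure D2:**
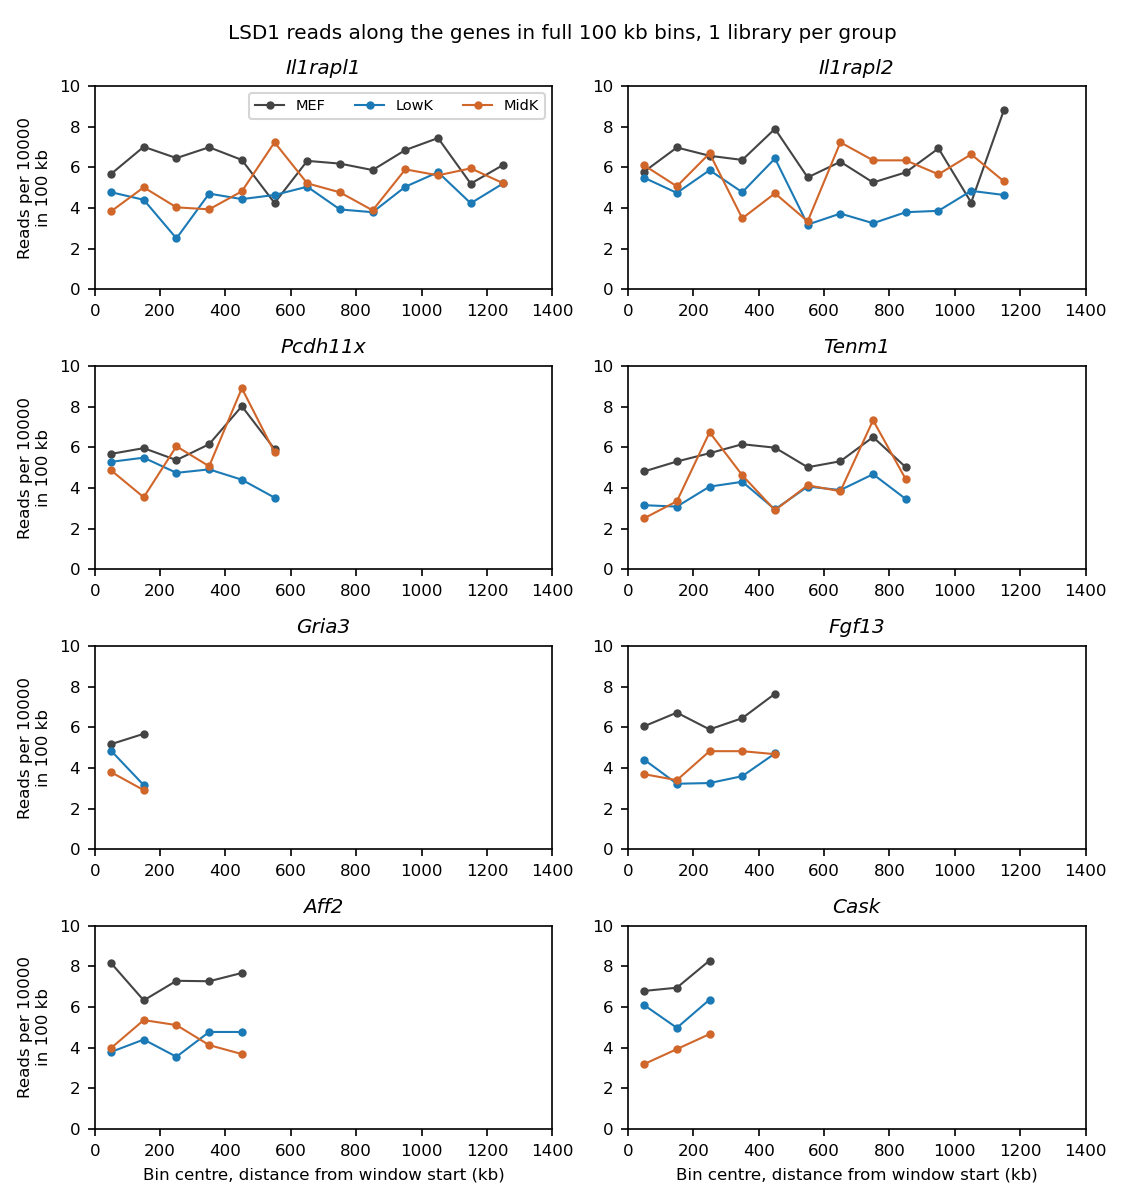
Reads of each full 100 kb bin per 10000 reads of the library, against the distance of the bin's centre from the lower-coordinate edge of the gene window, in 1 panel per gene with 1 line per library. LowK lies above MEF in 2 of the 55 bins and MidK in 12, of which 6 are in Il1rapl2, 2 each in Il1rapl1, Pcdh11x and Tenm1 and 0 in the other 4 genes.

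Between LowK and MEF 6 of the 63 member bins were called lower and 0 higher, where the rule called 3.17% of 1515 bins of the chromosome lower and 1.32% higher. The median ratio was 0.656 in the member bins and 0.903 over the chromosome. The strongest was the bin from 200 kb in Il1rapl1 (X, 86935937 to 87035936), where MEF had 570 reads, LowK 74 and MidK 82, with a ratio of 0.366 (0.283 to 0.466). It was followed by the first bin of Aff2 with 721 and 112 reads at 0.437 (0.355 to 0.534), the bin from 100 kb in Fgf13 with 593 and 95 at 0.451 (0.359 to 0.561), the bin from 200 kb in Aff2 with 644 and 105 at 0.459 (0.370 to 0.565) and the bin from 400 kb in Tenm1 with 528 and 87 at 0.464 (0.365 to 0.583). The called bins thus lay in 5 of the 8 genes, with none in Pcdh11x, Gria3 or Cask. With 1 site per 300 bp 1 bin was called lower, where 0.936% of chromosome bins were, with 200 kb bins 0, where 2.19% were, and with 50 kb bins 27 of 121, where 7.07% were.

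Between MidK and MEF 3 member bins were called higher, where 12% of 1520 chromosome bins were, and 1 lower, where 1.12% were. The median was 0.987 against 1.3 over the chromosome. One of the 3 was the bin from 500 kb in Il1rapl1 (X, 87235937 to 87335936), which was the lowest of all full bins in MEF, with 375 reads, and the highest of its gene in MidK, with 147, where LowK had 137. Its ratio was 2.31 (1.90 to 2.81). Within it, 1 kb (X, 87238001 to 87239000) held 36 of the MidK reads at 3 sites and 10 of the MEF reads at 2 sites. Whether the bin would be called without this kb was not tested. The bin from 1000 kb in Il1rapl2 had 377, 143 and 135 reads in MEF, LowK and MidK, with a ratio of 2.11 (1.72 to 2.58), and the last 30.4 kb of Pcdh11x had 108, 52 and 47, with a ratio of 2.57 (1.78 to 3.65). All 3 were the bins with the fewest reads per kb in MEF of their gene. The bin called lower was the last 11.3 kb of Tenm1, where MEF had 56 reads, LowK 25 and MidK 1, a ratio of 0.105 (0.00262 to 0.612). With library totals 0 bins were higher, where 3.49% of chromosome bins were, and 6 lower, where 5.46% were.

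Between MidK and LowK 14 of 61 tested member bins were called higher, where 18.6% of 1503 chromosome bins were, and 0 lower, where 0.931% were. The members' median ratio of 1.55 was close to the 1.49 of all bins. The 14 bins lay in 6 genes and none was in Gria3 or Cask. The bin from 400 kb in Pcdh11x had 130 reads in LowK and 181 in MidK, with a ratio of 2.98 (2.36 to 3.76), and it held 708 reads in MEF, the most of that gene. In Il1rapl2 5 neighbouring bins, from 600 kb to 1100 kb, were all called, a run picked out after its values were seen. The bins from 700 kb (96 and 129 reads), 600 kb (110 and 147) and 800 kb (112 and 129) had ratios of 2.87 (2.19 to 3.78), 2.86 (2.22 to 3.69) and 2.46 (1.90 to 3.20). The bin from 200 kb in Tenm1 had 120 and 137 reads and a ratio of 2.44 (1.90 to 3.14). With library totals 1 bin was called higher, where 3.06% of chromosome bins were.

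The windows were then set against flanks of the same total length, split before and after each window, within the same library, which needs no scaling between libraries. In MEF the 8 windows held 32648 reads and their flanks 36714, a ratio of 0.889 (0.876 to 0.903). In LowK they held 7658 against 11317, a ratio of 0.677 (0.657 to 0.697), and in MidK 5756 against 8513, a ratio of 0.676 (0.654 to 0.699). The windows were thus read less than their surroundings in all 3 libraries, and by this measure LowK and MidK were alike within counting error and both below MEF. Fgf13 at 1.11 (1.06 to 1.17) and Aff2 at 1.15 (1.09 to 1.21) were the exceptions in MEF, with more reads than their flanks. In LowK they were at 0.744 (0.670 to 0.827) and 0.753 (0.679 to 0.834), and in MidK at 0.626 (0.555 to 0.705) and 0.601 (0.535 to 0.674). In these 2 genes the window was above its surroundings in MEF and below them in LowK and MidK. Il1rapl1 had the lowest ratio in MEF, 0.788 (0.765 to 0.813), and Tenm1 in LowK, 0.629 (0.581 to 0.680). Gria3 was lowest in MidK, at 0.543 (0.454 to 0.649), where LowK had 0.827 (0.714 to 0.957). In the order MEF, LowK, MidK, Il1rapl2 had 0.887, 0.651 and 0.804, and Cask 0.835, 0.705 and 0.577. Site density gave ratios of 0.913, 0.719 and 0.733 for the 8 summed.

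**Figure D3:**
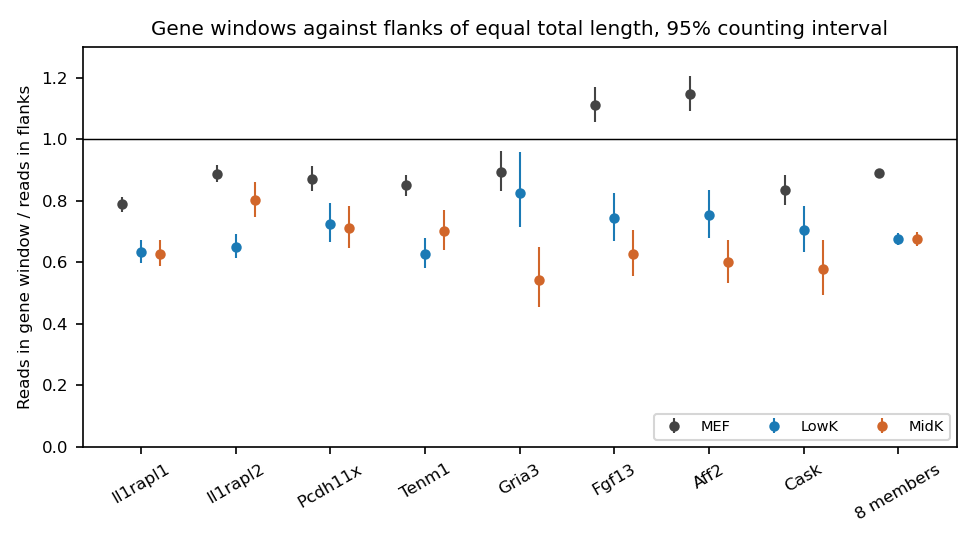
Reads in each gene window over reads in flanks of the same total length, with 95% intervals of counting error, for each library. The line marks 1. Fgf13 and Aff2 lie above it in MEF and nowhere else, and the 8 summed lie at 0.889 in MEF, 0.677 in LowK and 0.676 in MidK.

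The annotated ends of the genes differed from the interior. Within 5 kb on both sides of the 16 ends MEF had 902 reads, LowK 272 and MidK 104, and in the rest of their windows 31746, 7386 and 5652. LowK over MEF was 0.849 (0.739 to 0.974) at the ends and 0.655 (0.639 to 0.672) in the rest. MidK over MEF went the other way, with 0.680 (0.550 to 0.834) at the ends and 1.05 (1.02 to 1.08) in the rest. MidK over LowK was 0.817 (0.646 to 1.03) at the ends and 1.64 (1.58 to 1.69) in the rest. Without the higher-coordinate end of Cask, a set tried after seeing the data, LowK over MEF at the ends was 0.715 (0.613 to 0.830), which overlaps the interval of the rest, MidK over MEF was 0.646 (0.516 to 0.80) and MidK over LowK 0.922 (0.716 to 1.18). The other long genes also had a higher LowK over MEF ratio at the ends, 1.0 (0.952 to 1.05), than in the rest, 0.825 (0.813 to 0.837). Their MidK over MEF was higher at the ends, 1.67 (1.58 to 1.76), than in the rest, 1.14 (1.12 to 1.16), the reverse of the members. With 1 site per 300 bp the members' end ratios were near the median gene, at log2 0.03 (-0.24 to 0.29) for LowK over MEF and -0.22 (-0.59 to 0.14) for MidK over MEF.

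The ends differed among the genes. The higher-coordinate end of Cask had 43 reads in MEF, more in LowK, 54, and 10 in MidK. In LowK that was 5.40 reads per kb against 1.60 in the rest of the window, and LowK over MEF was 3.54 (2.33 to 5.41). It was 3.55 (2.02 to 6.33) with 1 site per 300 bp, and 1.51 (0.554 to 4.01) when each such site was counted 1 time. Most of the LowK reads lay at 5 neighbouring sites, at -912 to 154 bases from the annotated end. At X 13845871 (T>A) there were 4 B6 and 4 variant reads, at 13845965 (A>C) 9 and 2, at 13846073 (A>G) 5 and 3, at 13846502 (G>A) 2 and 4, and at 13846937 (G>C) 4 and 4. The share of B6 reads at this end was 44.4% in LowK (30.9 to 58.6), where it was 9.38% in the rest of the Cask window (7.04 to 12.2). The end was read more deeply, with 54 reads at 14 sites against 533 at 358, and since B6 shares move with depth the part of depth in this gap was not tested. In MEF the B6 share was 18.6% (8.39 to 33.4) at this end and 14.0% (12.6 to 15.6) in the rest. The site at 13846937 was listed in all 3 libraries, with 0 B6 and 5 variant reads in MEF, 4 and 4 in LowK and 4 and 2 in MidK.

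The higher-coordinate end of Pcdh11x was the one end with a high MidK value. MEF had 28 reads there, LowK 11 and MidK 23, and MidK over MEF was 4.85 (2.67 to 8.73), or 3.57 (1.96 to 6.42) with library totals. The ends of Tenm1 and Fgf13 were nearly empty in MidK. Tenm1 had 46 and 49 reads at its lower and higher ends in MEF, 11 and 23 in LowK and 1 and 1 in MidK. Fgf13 had 50 and 38, 7 and 9, and 1 and 0, and the higher end's ratio of MidK to MEF had an upper limit of 0.601. At the higher-coordinate end of Il1rapl1, where its start lies, MEF had 89 reads, LowK 7 and MidK 5, with a LowK over MEF ratio of 0.221 (0.0865 to 0.476). The start of Il1rapl2 at its lower end had 65, 29 and 6 reads, with LowK over MEF at 1.26 (0.782 to 1.97). The intervals of this pair of related genes did not overlap at their starts, while their whole windows had ratios of 0.678 and 0.665. Low ratios were not limited to starts. LowK over MEF was also low at the lower end of Il1rapl1, 0.384 (0.168 to 0.774), and the higher end of Aff2, 0.197 (0.0773 to 0.421), both opposite the start.

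**Figure D4:**
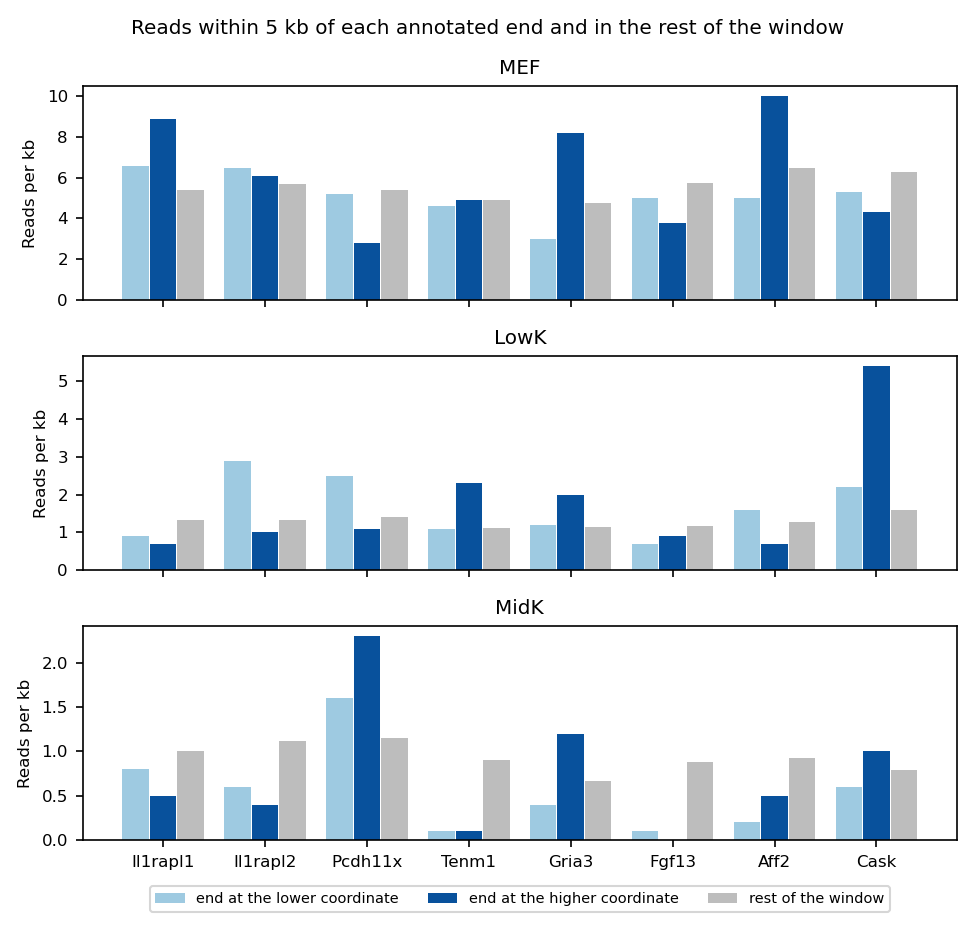
Reads per kb within 5 kb of the lower-coordinate and higher-coordinate annotated end of each gene and in the rest of its window, in 1 panel per library with its own vertical scale. The higher-coordinate end of Cask stands out in LowK at 5.40 reads per kb, and that of Pcdh11x in MidK at 2.30.

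By allele, B6 reads made up 12.6% of the members' reads in MEF (12.2 to 12.9), and in LowK and MidK they made up 7.39% (6.81 to 8.0) and 14.8% (13.9 to 15.8). The other gene windows had 14.8% (14.7 to 14.9), 10.5% (10.3 to 10.7) and 19.7% (19.4 to 20.1), so the members' share was lower in each library. Every listed site has at least 1 variant read, so these shares move with depth, and the members were read less deeply, with 2.03, 1.43 and 1.5 reads per site against 2.20, 1.63 and 1.74. At sites of equal depth the members did not have the lower share beyond the intervals at 2, 3, 4 or 5 reads. At 3 reads, a B6 read was present at 40.8% of member sites in MEF (38.8 to 42.9), and the LowK and MidK values were 53.8% (48.0 to 59.5) and 72.3% (65.4 to 78.6), where the other gene windows had 41.7% (41.0 to 42.3), 47.2% (45.9 to 48.6) and 66.4% (64.3 to 68.3). At 2 reads it was 0.878%, 7.45% (5.86 to 9.33) and 16.1% of member sites in MEF, LowK and MidK, and in LowK this was above the 5.05% (4.67 to 5.45) of the other gene windows, the reverse of the pooled gap. Between libraries, sites with 1 read of each allele were listed at different rates, and B6 shares of different libraries are not set against each other. By gene the share ran from 11.1% in Aff2 to 14.8% in Fgf13 in MEF, from 4.72% in Gria3 to 12.6% in Cask in LowK and from 9.63% in Cask to 16.7% in Pcdh11x in MidK.

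A measure less bound to that limit is the percent of two-allele sites with a variant majority, taken where each allele had at least 2 reads, over sites of 5 to 20 reads, no tie and 1 site per 300 bp. In MEF the variant base led at 181 of 401 member sites, 45.1% (40.2 to 50.2), while LowK had 19 of 45, 42.2% (27.7 to 57.8), and MidK 24 of 81, 29.6% (20.0 to 40.8). The rest of the gene windows had 47.8% (46.3 to 49.3), 47.5% (43.8 to 51.3) and 23.8% (21.1 to 26.7), with MidK apart from MEF. Among the members MidK was also the lowest, but its interval narrowly overlapped that of MEF, so no difference was called. A call needed 10 percentage points and intervals apart. Without thinning, the members were at 46.8% in MEF (42.6 to 51.1) and 27.0% in MidK (19.1 to 36.0), with intervals apart. Sites that are not thinned can share reads, so those intervals are too narrow. With a reliability of at least 20 the shares were 56.0%, 65.4% and 53.7%, with MidK no longer low, but the heading of that score's column makes the MidK value uncertain. In MEF, Pcdh11x was at 51.6% of 31 sites, Il1rapl2 at 50% of 82, Fgf13 at 49.0% of 49, Il1rapl1 at 45.9% of 98, Cask at 44.4% of 27, Aff2 at 42.5% of 40, Tenm1 at 36.4% of 55 and Gria3 at 31.6% of 19. All of these intervals overlapped 50%. Between MidK and MEF, Il1rapl1, Il1rapl2, Pcdh11x and Tenm1 had at least 10 untied sites in both libraries, and the share in MidK minus that in MEF was -18.1, -16.7, -15.2 and -11.4 percentage points, each with overlapping intervals. Of all 14 genes with enough sites 0% were called, and the same held for the 5 genes of LowK against MEF and the 3 of MidK against LowK.

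**Figure D5:**
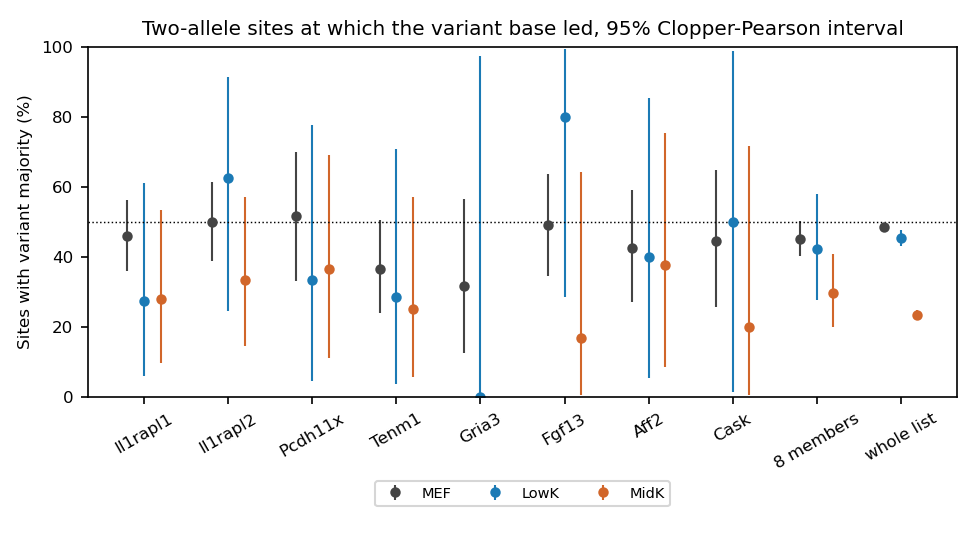
Percent of two-allele sites at which the variant base had more reads than the B6 base, per gene, for the 8 genes and for the whole list, with 95% Clopper-Pearson intervals and a dotted line at 50%. Gria3 had no such site in MidK and 1 in LowK. The 8 genes together are at 45.1% in MEF and 29.6% in MidK, with overlapping intervals.

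Few sites were read in more than 1 library. MEF and LowK shared 1039 member sites, 6.45% of the MEF list and 19.4% of the LowK list in these windows, MEF and MidK shared 630, 3.91% and 16.4%, and LowK and MidK shared 282, 5.26% and 7.36%. In the whole lists each of these shares was higher, at 9.20% and 20.3%, 4.79% and 16.6%, and 6.03% and 9.45%, though some gaps were small. All 3 libraries listed 60 sites, with 152, 138 and 145 reads, of which 15 lay in Il1rapl1, 13 in Il1rapl2, 11 in Aff2 and 10 in Pcdh11x. The deepest pair lay 20 bases apart in the bin of Il1rapl1 that was high in MidK. At X 87238412 (T>C) MEF had 0 B6 and 5 variant reads, LowK 0 and 12 and MidK 1 and 16, and at 87238392 (A>G) they had 1 and 4, 2 and 7 and 2 and 13. At this place the raw reads rose from MEF to MidK although the libraries shrank in that order, and reads of the same molecules can count at both sites. Cask 13846937, given above, was next. In Pcdh11x, 120293065 (G>A), 2827 bases inside the lower-coordinate end, had 1 and 6, 3 and 2 and 1 and 2, and 120716343 (C>T) had 0 and 11, 0 and 3 and 0 and 1.

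The kb with the most reads in each gene was a different one in each library. The 8 densest windows of 1 kb held 25 to 61 reads in MEF, 15 to 30 in LowK and 12 to 36 in MidK, and none of these 24 was the densest in a second library. In Pcdh11x, X 120715001 to 120716000 had 61 reads in MEF but 4 in LowK and 5 in MidK, and the next kb had 43, 24 and 3. In Il1rapl2, 137784001 to 137785000 had 1, 1 and 29 reads, of which 21 in MidK were B6, and in Il1rapl1, 87135001 to 87136000 had 2, 30 and 7, with 0 B6 reads in LowK. Each window was picked as the highest in its library, so that library's own value is high by choice, and these raw reads come from libraries of unequal size. In Cask the densest kb of LowK, 13846001 to 13847000, was the one at its higher-coordinate end, with 6, 22 and 7 reads, and in Fgf13 that of LowK, 59567001 to 59568000, holds the CpG-rich promoter shown, with 1, 15 and 0.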

How the data were processed

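LSD1 chromatin was read in 1 library per group (MEF, LowK, MidK), grouped by sample title. The submitters' processing notes name BWA and mm10, and the design text names bcftools mpileup for allele-specific variant calls. Tool versions, read filters and any removal of duplicates: not given in the sources used here. The deposited counts give B6 and variant reads at each listed position, per the file headers, and the deposited score rates each call's reliability. Entries other than single-base changes were left out, 6.97%, 6.13% and 5.56% of the MEF, LowK and MidK lists.

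Reads were summed over RefSeq gene windows (GRCm38.p6), 100 kb bins, flanks and gene ends with Python 3.11.15, numpy 2.4.6, pandas 2.3.3 and scipy 1.17.1 and scaled to the ratio of the median gene. Calls needed a 2-fold difference, separate exact Poisson intervals and 30 reads in 1 library. The rule was tried on simulated independent Poisson counts. These lack reads counted at several sites, so they do not give the rule's error rate in these data. Shares have exact 95% Clopper-Pearson intervals. Totals of 883058, 295240 and 203350 reads limit precision most in MidK.

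The members and lists were chosen with earlier results of these data known. Named were all 8 members, list genes past the rule (at most 3 per list and direction, 1 of them not reported here), the 5 nearest genes, the extreme and called bins (at most 5) and the 5 deepest shared sites. Alternatives changed scaling, thinning, depth, reliability, entry type, window, bin size, fold, flanks and allele minimum.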

Additional observations from a re-analysis of the deposited data

Results flagged for a closer look

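Reads that matched neither listed base were outside the comparisons. At the sites of the 8 genes they made up 3.46% of the depth in MidK, against 3.09% in MEF, the fibroblast sample with no vector named in its labels, and 2.51% in LowK, and the MidK share was singled out because it lies above that of MEF. These are 206, 1041 and 197 reads, and whether they are base errors was not tested. Insertions and deletions, also left out of the comparisons, were 7.10%, 5.83% and 6.04% of the entries in these windows in MEF, LowK and MidK.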

How the results depend on the processing

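No paired analysis was possible because each group has 1 library. Of 101 alternative values for the results that answer a comparison, 50 stayed within the counting interval or within 1.5 times the main count and 51 moved. For the members' summed log2 ratio of LowK over MEF, -0.60, the moved values were all negative: -0.44 with 1 site per 300 bp with all its reads, -0.38 with each such site counted 1 time, -0.51 with the gene body alone, -0.85 with a reliability of at least 20, -0.51 with library totals, -0.31 at sites listed in all 3 libraries and -0.75 at sites with at least 2 reads. For MidK over LowK, 0.68, they were 0.53, 0.36, 0.60, 1.06, 0.13, 0.043 and 0.94 under the same settings in that order, and 0.63 without the deepest 1% of sites. For MidK over MEF, 0.06, they were -0.013 with thinned sites counted 1 time, 0.17 with the gene body alone, -0.39 with library totals, -0.054 at sites listed in all 3 libraries and 0.11 at sites with at least 2 reads, so its direction was not stable. Library totals change the scale alone, by log2 0.09, -0.44 and -0.56 in the 3 comparisons, and for the other settings the cause was not tested.

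Called members moved from 0 to 4 at 1.5-fold, 3 with a reliability of at least 20 and 2 at sites with at least 2 reads for LowK over MEF, all lower. They moved to 6, 5 and 4 for MidK over LowK, all higher. For MidK over MEF they moved to 1 lower of 3 tested at sites listed in all 3 libraries. Under that setting 17 genes of the chromosome were tested and 3 of them, 17.6%, were called lower. Called bins for LowK over MEF moved from 6 to 1 with 1 site per 300 bp, 0 with 200 kb bins and 27 with 50 kb bins. For MidK over MEF they moved from 4 to 1, 1 and 13. For MidK over LowK they moved from 14 to 5, 4 and 32, and to 1 with library totals. The 13 were 8 higher and 5 lower of 121 tested, where 16.8% and 3.43% of chromosome bins were. The 32 were 31 higher and 1 lower of 119, where 23.5% and 2.19% were. The other moved counts for MidK were all higher. With 1 site per 300 bp they were 1 of 63 and 5 of 61, where 8.09% and 11.5% of chromosome bins were higher. With 200 kb bins they were 1 and 4 of 33 each, where 8.73% and 15.6% were.

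Windows over flanks moved from 0.889 to 0.95 with thinned sites, 0.960 with flanks of 100 kb and 0.913 by sites per kb in MEF. They moved from 0.677 to 0.771, 0.785 and 0.719 in LowK and from 0.676 to 0.726, 0.718 and 0.733 in MidK, below 1 in each. The variant majority moved to 56.0% in MEF, 65.4% in LowK and 53.7% in MidK with a reliability of at least 20, to 75.0% (9 of 12 sites) in LowK at sites that MEF also lists and to 42.9% (3 of 7) in MidK with 3 reads of each allele. The reliability column of the MidK list is headed with another name, so MidK values under that setting are uncertain. Alternatives for ends and starts were chosen after seeing the data.

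Depth limits these values: sites with a single read made up 50.3%, 73.1% and 74.6% of member sites in MEF, LowK and MidK, and which sites a library lists depends on its depth.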
